A study of Mus musculus with 12 samples.

Results

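The effect of the ErbB2 knock-in on the heart transcriptome was measured as the mean of all hearts that carry it minus the mean of all hearts that do not, with the ERRα genotype in the model. All 12 arrays of the series entered this comparison, 6 from knock-in carriers and 6 from non-carriers. The carriers were ErbB2 KI hearts, in which an ErbB2 cDNA was placed into the Erbb2 gene, and KI:KO hearts, which combine this allele with the loss of ERRα. The non-carriers were WT hearts, set against ErbB2 KI, and ERRα KO hearts, set against KI:KO, with 3 hearts in each of the 4 groups. All hearts came from male FVB mice aged 15 weeks that were killed at Zeitgeber time 4. The knock-in allele is hypomorphic and both alleles act in the whole body, so neither is restricted to cardiomyocytes. The labels call the 3 hearts of a group biological replicates. The question was which genes respond to the knock-in whether or not ERRα is present, and which respond only on average.

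ErbB2 is a receptor tyrosine kinase that binds no known ligand of its own. In cardiomyocytes it pairs with ErbB4, or with ErbB3 in other cells, once these receptors have bound a neuregulin, and the pair signals through the PI3K-Akt and MAPK cascades. ErbB2 signalling is known for keeping the adult heart muscle intact, and its blockade in breast cancer therapy can weaken the heart. ERRα, encoded by Esrra, is an orphan nuclear receptor that drives genes of mitochondrial energy metabolism.

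Each array of the Affymetrix Mouse Gene 2.0 ST type gave 41345 log2 RMA values, from which 22184 genes were tested. Array medians ranged from 4.58 to 4.65 on the log2 scale, and the precision is limited by the number of arrays. The correlation between arrays of a group was at least 0.9875 across the genes tested. Cardiomyocyte markers were the brightest marker list in every group, with a summed linear level (10 genes) of 63910 to 64930 in ErbB2 KI, 64610 to 66300 in WT, 58950 to 60720 in KI:KO and 60150 to 63520 in ERRα KO hearts. Some arrays stood apart in other lists. ErbB2 KI replicate 2 had T and NK cell markers (9 genes measured) at a sum of 625, against 187.5 to 229.5 on WT, KI:KO and ERRα KO arrays, and these markers had no gene at an unadjusted p under 0.05. White adipocyte markers (8 measured) averaged 7.35 and 7.40 in ErbB2 KI replicates 1 and 2, against 6.25 to 6.42 in WT hearts, with 5 of 8 higher at an unadjusted p under 0.05 with ERRα present. They averaged 6.56 in ErbB2 KI replicate 3, 7.03 to 7.18 in ERRα KO hearts and 6.425 to 6.87 in KI:KO hearts. The median difference of this list was 0.74 with ERRα and -0.36 without it. The erythroid gene measured had a linear level of 332 in KI:KO replicate 3, against 42.8 to 51.8 in ErbB2 KI, WT and ERRα KO hearts. Of 12 atrial markers 7 had an unadjusted interaction p under 0.05, with a median of 0.27 with ERRα and -0.26 without it. WT replicate 2 and ERRα KO replicates 1 and 3 were high in interferon-inducible and MHC genes. The part of these arrays and markers in the calls was not tested.

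Erbb2 itself was lower in all 6 carriers than in all 6 non-carriers. Its log2 value was 5.74, 5.94 and 5.61 in ErbB2 KI hearts, against 6.55, 6.39 and 6.47 in WT hearts, and 5.97, 5.82 and 5.64 in KI:KO hearts, against 6.60, 6.42 and 6.80 in ERRα KO hearts. The gene fell by 0.75 ± 0.09 on the log2 scale (SE, n = 6 arrays each; limma, adjusted p = 0.00699), with a difference of -0.71 with ERRα and -0.80 without it. Whether its probe set lies in the part of the gene that the cDNA replaces was not examined. Esrra, the gene lost in KI:KO and ERRα KO hearts, did not pass in this comparison (-0.07 ± 0.07, adjusted p = 0.847), and stood at 7.46 to 7.67 in ErbB2 KI and 7.40 to 7.74 in WT hearts, against 6.17 to 6.36 in KI:KO and 6.31 to 6.43 in ERRα KO hearts.

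Across all genes 27 were called at an adjusted p under 0.05 (limma, Benjamini-Hochberg over 22184 genes), which is 0.122% of those tested. Of these, 19 rose (0.0856%) and 8 fell (0.0361%) in knock-in carriers. The smallest called difference was 0.44 on the log2 scale, or 1.36-fold, and 20 of the 27 genes changed by more than 1.5-fold. At an unadjusted p under 0.05 the comparison held 1009 higher genes (4.55%) and 1000 lower genes (4.51%). The 6 carrier arrays lay all above or all below the 6 others for 95 genes (0.428%), among them 10 of the 27 called. The count of 27 became 15 without WT replicate 1, 16 without WT replicate 2 or ErbB2 KI replicate 1, 17 without ERRα KO replicate 3 and 104 without KI:KO replicate 3. It was 12 in an additive model and 8 when the ERRα genotype was left out. Of 16 named rises 11 lost their call in the additive model and 15 with the genotype left out, the exception being Utp18, whereas of 8 falls 1 lost it in each, Slitrk6.

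In each ERRα background on its own the counts differed. With ERRα present (ErbB2 KI minus WT) 3 genes were called (0.0135%), and without ERRα (KI:KO minus ERRα KO) 73 genes were called (0.329%). At an unadjusted p under 0.05 the same comparisons held 1182 genes (5.33%) with ERRα and 2353 genes (10.6%) without it. The test of the difference between the backgrounds, which is the interaction of both alleles, called 2 genes (0.00902%) and had 1565 at an unadjusted p under 0.05 (7.05%). Without single arrays the count with ERRα became 15 (ErbB2 KI replicate 3) and 5 (ERRα KO replicate 1 or 3). That without ERRα became 44 and 47 (WT and ErbB2 KI replicate 1), 34, 36 and 17 (the 3 ERRα KO arrays), 28 and 32 (KI:KO replicates 1 and 2) and 248 (KI:KO replicate 3). The interaction count became 16 (ErbB2 KI replicate 3), 22 (KI:KO replicate 3) and 1 (KI:KO replicates 1 and 2, ERRα KO replicate 1, and replicate 2 of ErbB2 KI or WT).

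The 8 falls and the 19 rises were built differently. Every one of the 8 falls was also at an unadjusted p under 0.05 in each background, with a median difference of -0.71 with ERRα and -0.79 without it, and in all 8 the 6 carrier arrays lay below the 6 others. Of the 19 rises, 9 were at an unadjusted p under 0.05 with ERRα and 18 without it. Their median difference was 0.27 with ERRα and 0.88 without it, 15 of 19 were larger without ERRα, and in 2 the 6 carrier arrays lay above the 6 others. The interaction had an unadjusted p under 0.05 in 1 of the 8 falls and in 14 of the 19 rises, 13 of them larger without ERRα, and passed adjustment only for Kcnt2. The genes were selected by their average over both backgrounds, so the values in each background describe the calls and do not support them.

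**Figure D1:**
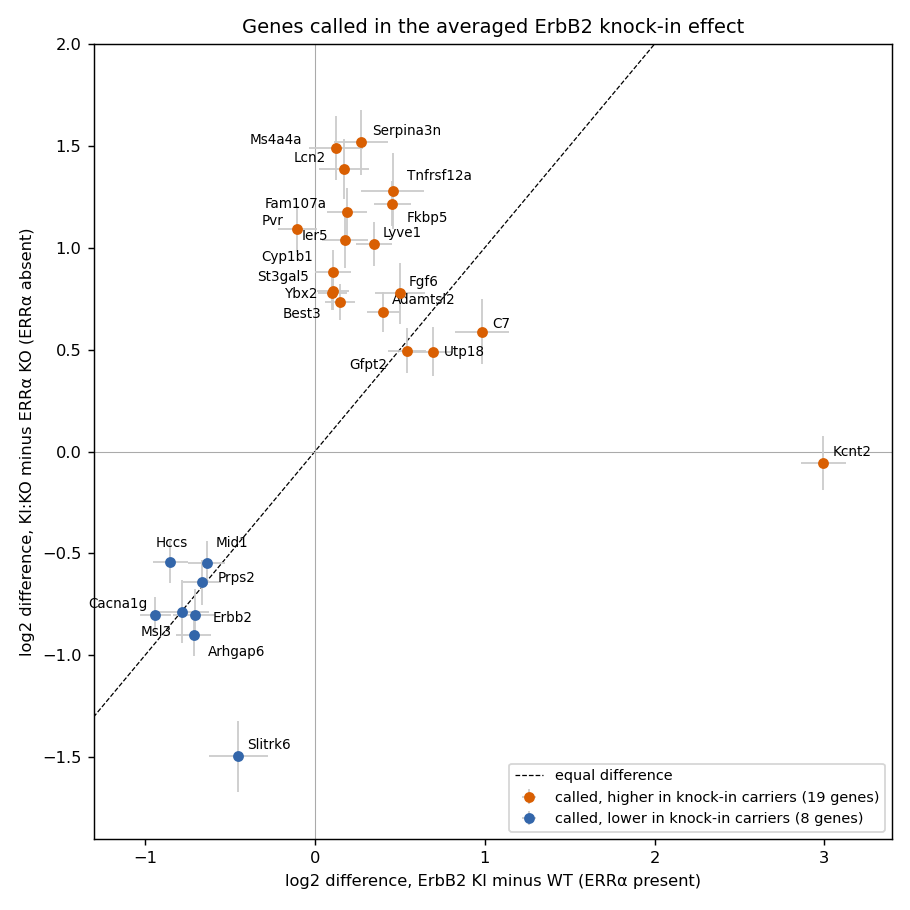
Log2 difference of the 27 called genes in hearts without ERRα (KI:KO minus ERRα KO, vertical) against that in hearts with ERRα (ErbB2 KI minus WT, horizontal), with bars for the standard error. The 8 genes that fell sit near the line of equal difference except Slitrk6, while 15 of the 19 that rose sit above it and Kcnt2 lies at 2.99 with ERRα and -0.06 without it.

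The genes that fell included a run of neighbours on the X chromosome. Msl3, a subunit of the chromatin-binding MSL complex, was at 8.96, 8.96 and 9.08 in ErbB2 KI hearts, against 10.03, 9.83 and 9.95 in WT hearts. In KI:KO hearts it was at 8.74, 8.89 and 8.83, against 9.58, 9.56 and 9.73 in ERRα KO hearts. It fell by 0.87 ± 0.06 on the log2 scale (adjusted p = 0.000145), and the lowest non-carrier lay above the highest carrier. Hccs, which attaches haem to cytochrome c, was at 9.33 to 9.65 in ErbB2 KI and 9.67 to 9.85 in KI:KO hearts, against 10.25 to 10.47 in WT and 10.26 to 10.32 in ERRα KO hearts, and fell by 0.70 ± 0.07 (adjusted p = 0.00283). Arhgap6, a regulator of the actin cytoskeleton, fell by 0.81 ± 0.07 (adjusted p = 0.000982). Prps2, which makes the ribose precursor of nucleotides, fell by 0.65 ± 0.08 (adjusted p = 0.00699). Mid1, a ubiquitin ligase bound to microtubules, fell by 0.59 ± 0.08 (adjusted p = 0.00992).

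In the RefSeq annotation of GRCm38.p6 the lower coordinates of these 5 genes lie within 2.34 Mb on chromosome X, from 167346320 (Prps2) to 169685199 (Mid1), and they were all the genes called on that chromosome. The stretch between these coordinates holds 8 genes tested. Its ends were set by the called genes Prps2 and Mid1, so their calls within it were fixed in advance. The 3 genes that were not called had mean log2 values up to 3.33, below the 40th percentile of all genes (4.67). The called 5 averaged 6.59 or more. Between these ends no gene above that percentile was left uncalled, which does not hold for genes just outside them, given next. Of all 38 genes tested within 5 Mb of Msl3, 26.3% were at an unadjusted p under 0.05, against 7.73% of the genes of chromosome X. Of the 30 outside the stretch, 0 were called (limma) and 5 were at an unadjusted p under 0.05. Among these, chosen after their values were seen, are Tlr7 and Tlr8, receptors for single-stranded RNA that lie next to Prps2. Tlr7 was at 5.17 to 5.39 in ErbB2 KI and 5.99 to 6.12 in KI:KO hearts, against 6.12 to 6.21 in WT and 5.98 to 6.54 in ERRα KO hearts (-0.50 ± 0.09, adjusted p = 0.0780). Tlr8 differed by -0.37 ± 0.11 (adjusted p = 0.303). The calls of Msl3, Arhgap6, Hccs and Prps2 held under every alternative run, and that of Mid1 was lost when a gene's probe sets were averaged (adjusted p = 0.0553) and with the methods' test after adjustment (0.489).

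**Figure D2:**
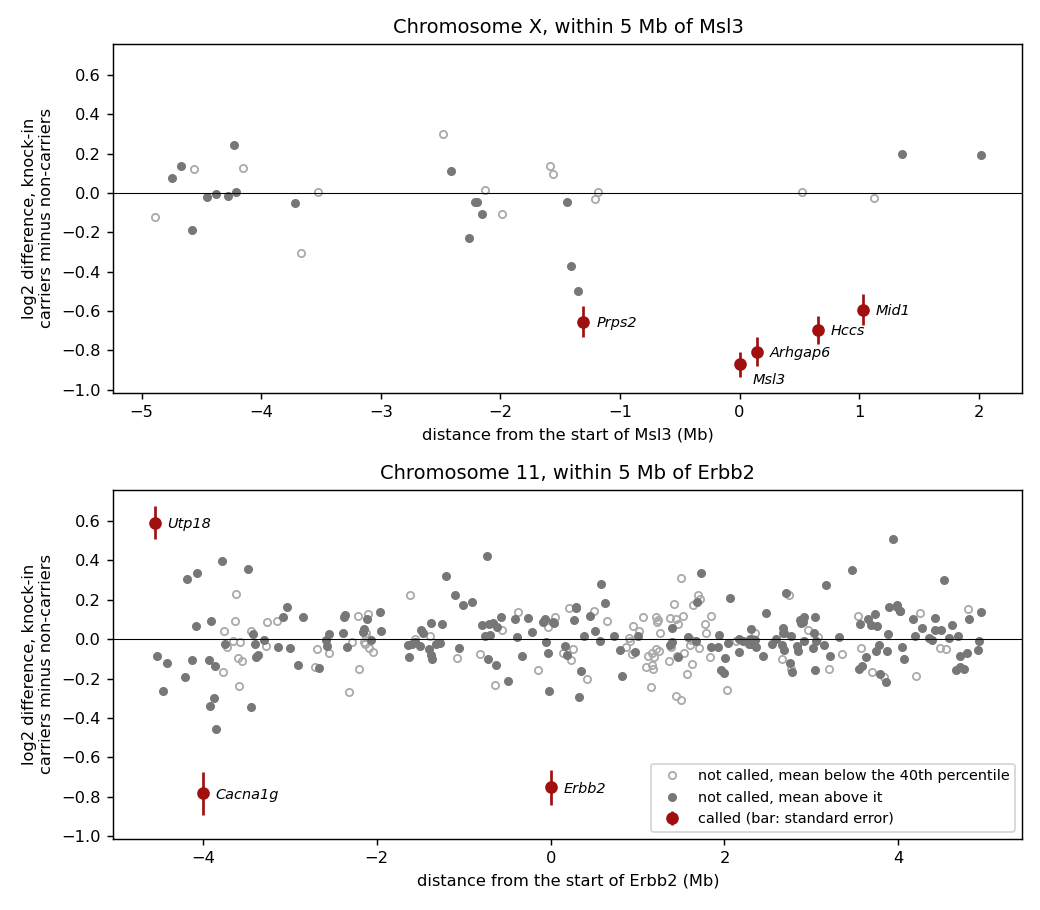
Averaged knock-in difference of each gene (log2, vertical) against its distance from the start of Msl3 on chromosome X (top) and of Erbb2 on chromosome 11 (bottom), in Mb. The 5 called X-linked genes lie between -0.87 and -0.59 among uncalled neighbours, and around Erbb2 3 of 314 genes were called.

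Around the edited gene on chromosome 11 the called genes were fewer and went in both directions. Of 314 genes within 5 Mb of Erbb2, 3 were called, Erbb2 among them, where 5 of 1656 genes of chromosome 11 and 0.122% of all genes were. At an unadjusted p under 0.05, 17 were higher and 20 lower (11.8% in all, against 10.5% of the genes of chromosome 11). The called genes were Erbb2, Cacna1g at a distance of -4.004 Mb and Utp18 at -4.553 Mb. Cacna1g, the pore subunit of a T-type calcium channel, was at 5.67, 5.90 and 5.83 in ErbB2 KI hearts, against 6.68, 6.76 and 6.30 in WT hearts, and at 6.25, 6.18 and 5.68 in KI:KO hearts, against 6.81, 6.86 and 6.79 in ERRα KO hearts. It fell by 0.78 ± 0.11 (adjusted p = 0.0169), with -0.78 with ERRα and -0.79 without it. The call was lost without ERRα KO replicates 1 or 3, ErbB2 KI replicate 1, or WT replicates 1 or 2 (adjusted p up to 0.0734). Utp18, which takes part in ribosomal RNA processing, was at 7.04, 6.84 and 7.15 in ErbB2 KI hearts, against 6.19, 6.36 and 6.39 in WT hearts, and at 6.91, 7.201 and 6.97 in KI:KO hearts, against 6.43, 6.71 and 6.47 in ERRα KO hearts. It rose by 0.59 ± 0.08 (adjusted p = 0.0180), and all 6 carriers lay above all 6 non-carriers. That call was lost without KI:KO replicate 2 or without replicates 1 or 3 of ErbB2 KI, 1 or 3 of ERRα KO and 1 or 2 of WT (adjusted p up to 0.0751).

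The fall with the largest size was that of Slitrk6, a transmembrane protein with leucine-rich repeats known from neurons and the inner ear. It was at 4.55, 5.03 and 4.73 in ErbB2 KI hearts, against 5.20, 5.41 and 5.05 in WT hearts, and at 4.34, 4.68 and 4.16 in KI:KO hearts, against 5.63, 5.90 and 6.13 in ERRα KO hearts. The groups did not overlap in either background, though with ERRα the nearest hearts were only 5.03 and 5.05. Slitrk6 fell by 0.97 ± 0.12 (adjusted p = 0.00876), with -0.45 with ERRα and -1.49 without it (interaction, adjusted p = 0.33). It is the only fall with an unadjusted interaction p under 0.05. Its call was kept without any single array and lost in the additive model (adjusted p = 0.143).

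Among the rises, several genes are known as targets of glucocorticoids or of the acute-phase response, in which cytokines such as interleukin-6 act through STAT3. The glucocorticoid receptor is a nuclear receptor that binds DNA as a pair at palindromes of the form ACANNNTGT, and this motif was searched on both strands of the RefSeq promoter sequences (GRCm38.p6, 250 bases before to 50 after each transcript start in the table, a gene counting when any of its promoters holds the motif). It was present in 4 of the 23 called genes that have a promoter in the table, C7, Fam107a, Lcn2 and Serpina3n, and in 7.0% of the 16990 tested genes that have one. The stretches around it are shown for the 3 of these with the largest differences between backgrounds, with the motif in capitals, 5′ to 3′ along the gene. They lie at chr2:32387838-32387936 (Lcn2, minus strand), chr12:104406587-104406685 (Serpina3n, plus strand) and chr14:8309842-8309940 (Fam107a, minus strand).
Lcn2: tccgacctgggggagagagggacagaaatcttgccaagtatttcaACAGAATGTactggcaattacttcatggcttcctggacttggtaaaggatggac
Serpina3n: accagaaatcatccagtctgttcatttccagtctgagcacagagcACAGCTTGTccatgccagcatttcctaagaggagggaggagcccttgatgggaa
Fam107a: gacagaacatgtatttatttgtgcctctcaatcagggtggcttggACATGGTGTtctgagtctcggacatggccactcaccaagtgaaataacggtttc
The motif starts at -152 in Lcn2, -76 in Serpina3n and -116 in Fam107a, counted in bases from the transcript start that the promoter table uses. That start is the outer end of the gene for Lcn2, but lies 62 bases inside the annotated gene for Serpina3n and 7828 bases inside it for Fam107a, which has 3 promoters in the table. A match is a description of the sequence and was not tested as a binding site, and the promoter shown for Fkbp5 in the same table does not hold these letters.

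Serpina3n, an acute-phase protease inhibitor, was at 8.75, 8.82 and 8.86 in ErbB2 KI hearts, against 8.596, 8.55 and 8.47 in WT hearts, and at 11.25, 11.08 and 10.67 in KI:KO hearts, against 9.77, 9.19 and 9.48 in ERRα KO hearts. It rose by 0.89 ± 0.11 (adjusted p = 0.00876), with 0.27 with ERRα and 1.52 without it. In both backgrounds the carriers lay above the non-carriers, but the ErbB2 KI hearts lay below the ERRα KO hearts. Fkbp5, a chaperone partner of the glucocorticoid receptor and one of its standard target genes, was at 6.54, 6.27 and 6.40 in ErbB2 KI hearts, against 5.90, 5.91 and 6.04 in WT hearts, and at 7.51, 7.70 and 7.36 in KI:KO hearts, against 6.39, 6.32 and 6.20 in ERRα KO hearts. It rose by 0.84 ± 0.08 (adjusted p = 0.000982), with 0.46 with ERRα and 1.22 without it. Lcn2, which binds bacterial siderophores, was at 6.32, 5.97 and 5.98 in ErbB2 KI hearts, against 5.997, 5.84 and 5.92 in WT hearts, and at 7.42, 7.46 and 7.05 in KI:KO hearts, against 6.08, 6.03 and 5.67 in ERRα KO hearts. It rose by 0.78 ± 0.10 (adjusted p = 0.0122), with the groups overlapping with ERRα present. Fam107a, an actin-associated protein known to respond to stress and glucocorticoids, rose by 0.68 ± 0.08 (adjusted p = 0.00825), with a difference of 0.19 with ERRα and 1.18 without it. The calls of these 4 genes were kept without any single array. In the additive model Fkbp5 kept its call (adjusted p = 0.0412), but Serpina3n (0.243), Lcn2 (0.288) and Fam107a (0.247) lost it. The call of Lcn2 was also lost over all probe sets (0.0513), and that of Fam107a when a gene's probe sets were averaged (0.154).

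**Figure D3:**
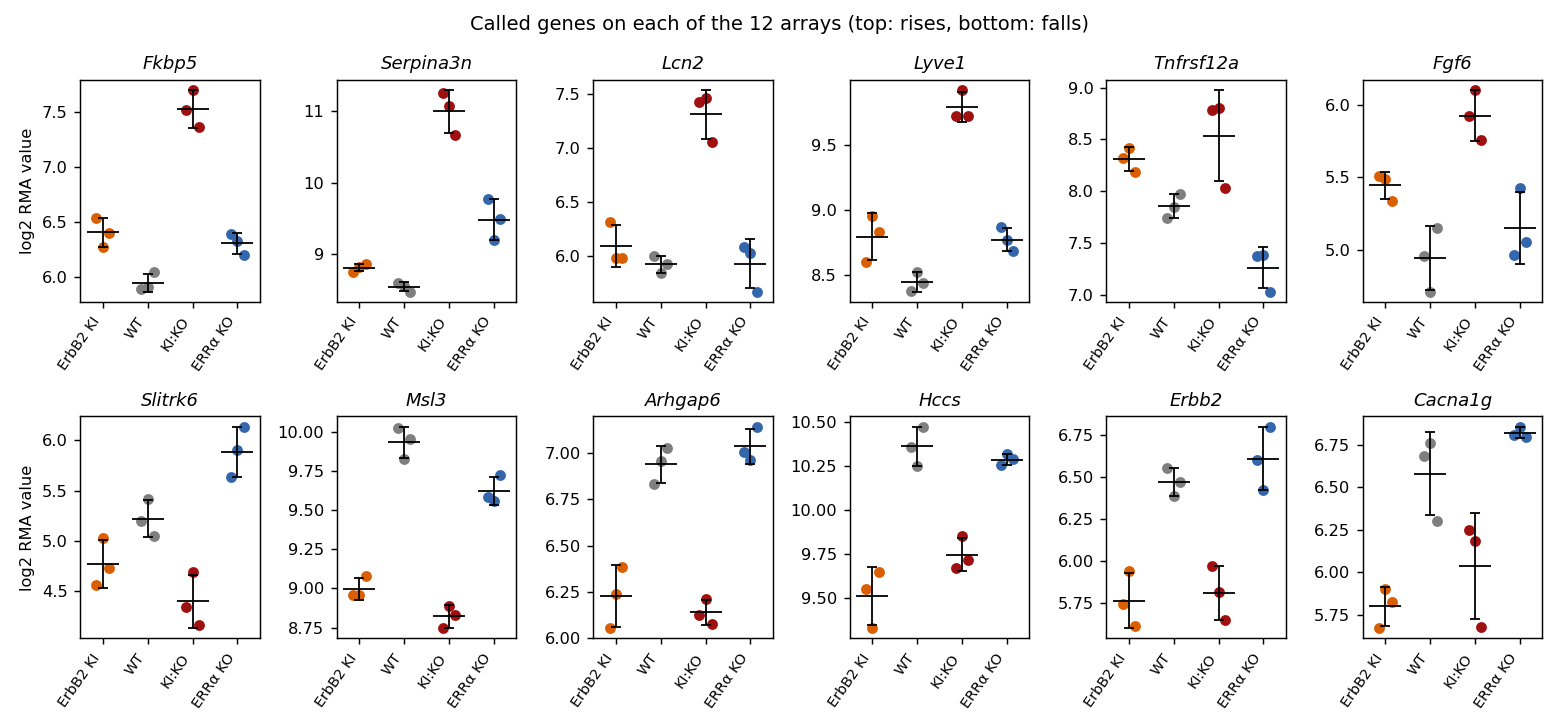
Log2 RMA values of 12 called genes on each array, in ErbB2 KI, WT, KI:KO and ERRα KO hearts, with the mean as a line and the SD as bars (n = 3). Fkbp5, Serpina3n and Lcn2 are highest in KI:KO hearts, whereas Msl3, Arhgap6, Hccs and Erbb2 are lower in ErbB2 KI and KI:KO hearts alike.

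The full list of glucocorticoid-responsive genes held 37 genes. Of these 3 rose and 0 fell after adjustment (limma), and 19 were higher and 1 lower at an unadjusted p under 0.05, where 4.55% and 4.51% of all genes were. Its median difference was 0.20 on average, 0.07 with ERRα and 0.30 without it, against medians of all genes of -0.0013, -0.0041 and -0.0031. The mean level of the list was 7.34 to 7.47 in ErbB2 KI, 7.30 to 7.33 in WT, 7.85 to 7.92 in KI:KO and 7.41 to 7.53 in ERRα KO hearts, so that no carrier array fell below its non-carrier group in either background. Mt2, a metal-binding metallothionein, was higher by 0.85 ± 0.15 without passing (adjusted p = 0.0572). The single lower gene was Dusp1, a MAPK phosphatase (-0.30 ± 0.11, adjusted p = 0.409), with 2 lower without ERRα KO replicate 2. The number called was 6 without KI:KO replicate 3, 1 in the additive model and 0 with the ERRα genotype left out. The receptor genes and the enzymes that make or remove corticosterone (6 measured) had 0 called (limma) and 1 at an unadjusted p under 0.05, Hsd11b1, which regenerates the active steroid (0.19 ± 0.08, adjusted p = 0.479). Nr3c1, which encodes the glucocorticoid receptor, differed by -0.12 ± 0.07 (adjusted p = 0.675), with 0.08 with ERRα and -0.32 without it (adjusted p = 0.226). Nr3c2, which encodes the mineralocorticoid receptor, was at 0.07 and -0.26 in these backgrounds, and both had an unadjusted p under 0.05 without ERRα.

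The acute-phase and interleukin-6 family list had 38 genes measured, with 3 risen (Serpina3n, Lcn2 and Pvr), 12 higher and 1 lower at an unadjusted p under 0.05, and a median of 0.18 (0.12 with ERRα and 0.20 without it). Lcn2 belongs to both lists. Pvr was placed in this list but is an adhesion receptor rather than an acute-phase protein, and it differed by -0.10 with ERRα and 1.09 without it. Ahsg, the plasma protein fetuin-A, was at 7.38 to 7.45 in ErbB2 KI and 8.28 to 9.05 in KI:KO hearts, against 6.82 to 7.13 in WT and 7.38 to 7.77 in ERRα KO hearts (0.70 ± 0.13, adjusted p = 0.0819). In this list 6 genes were called without KI:KO replicate 3, and 0 in the additive model or with the ERRα genotype left out, where 5 rather than 12 were higher at an unadjusted p under 0.05. This list was not sorted by whether a member rises or falls in the acute-phase response, so its counts, Ahsg included, do not read out that response. Parts of both lists had been seen to move in these data when they were chosen.

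Some rises were at an unadjusted p under 0.05 in each background. C7, a component of the complement attack complex, was at 9.52, 9.73 and 9.75 in ErbB2 KI hearts, against 8.56, 8.82 and 8.66 in WT hearts, and at 10.15, 10.46 and 10.07 in KI:KO hearts, against 9.84, 9.81 and 9.27 in ERRα KO hearts. It rose by 0.79 ± 0.11 (adjusted p = 0.0175), with 0.98 with ERRα and 0.59 without it, and the carriers lay above the non-carriers within each background. The call of C7 was lost without KI:KO replicate 2 or without replicates 2 or 3 of ErbB2 KI and 1 or 3 of WT (adjusted p up to 0.0749). Gfpt2, which feeds glucose into the hexosamine pathway, rose by 0.52 ± 0.08 (adjusted p = 0.0260), with 0.54 with ERRα and 0.49 without it. It kept its call only when KI:KO replicate 3, ErbB2 KI replicate 3 or ERRα KO replicate 1 was the array left out. Adamtsl2, a secreted protein that binds microfibrils and is known to restrain TGF-β, rose by 0.54 ± 0.07 (adjusted p = 0.00876), with 0.40 and 0.69, and its call was kept without any single array.

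Fgf6, a fibroblast growth factor known mainly from skeletal muscle regeneration, was at 5.51, 5.49 and 5.33 in ErbB2 KI hearts, against 4.96, 4.71 and 5.15 in WT hearts, and at 5.92, 6.10 and 5.75 in KI:KO hearts, against 4.96, 5.43 and 5.06 in ERRα KO hearts. It rose by 0.64 ± 0.10 (adjusted p = 0.0459), and the carriers lay above the non-carriers within each background. This call was kept only when KI:KO replicate 3, ERRα KO replicate 2 or WT replicate 3 was the array left out. Fgf16, a fibroblast growth factor made in heart muscle, was at 6.78, 6.70 and 6.90 in ErbB2 KI hearts, against 7.28, 7.33 and 7.17 in WT hearts, and at 6.49, 6.58 and 6.49 in KI:KO hearts, against 6.87, 7.16 and 6.78 in ERRα KO hearts. Its difference of -0.44 ± 0.08 missed the threshold (adjusted p = 0.0572), with -0.47 and -0.41 in the backgrounds. Igf1, the insulin-like growth factor, differed by 0.41 ± 0.12 (adjusted p = 0.254) and Pgf, a ligand of the VEGF receptor Flt1, by 0.47 ± 0.11 (adjusted p = 0.179). Of 46 growth factors and binding proteins measured, 1 rose (Fgf6) and 0 fell, and 8 were higher and 3 lower at an unadjusted p under 0.05 (1 lower without WT replicate 1 and 5 without KI:KO replicate 3).

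Other rises were larger in hearts without ERRα. Of those that follow, Tnfrsf12a (0.46 with ERRα and 1.28 without it) and Lyve1 (0.35 and 1.02) were also at an unadjusted p under 0.05 in each background. Tnfrsf12a, the receptor of the cytokine TWEAK, was at 8.32, 8.42 and 8.19 in ErbB2 KI hearts, against 7.74, 7.84 and 7.97 in WT hearts, and at 8.78, 8.80 and 8.03 in KI:KO hearts, against 7.37, 7.38 and 7.03 in ERRα KO hearts. All 6 carriers lay above all 6 non-carriers, the rise being 0.87 ± 0.13 (adjusted p = 0.0263). Ms4a4a, a membrane protein of macrophages, was at 4.64 to 5.08 in ErbB2 KI and 6.59 to 6.76 in KI:KO hearts, against 4.63 to 4.81 in WT and 4.96 to 5.58 in ERRα KO hearts, and rose by 0.81 ± 0.11 (adjusted p = 0.0162). Lyve1, a hyaluronan receptor of lymphatic endothelium and of resident macrophages, was at 8.596 to 8.95 in ErbB2 KI and 9.72 to 9.92 in KI:KO hearts, against 8.38 to 8.52 in WT and 8.68 to 8.86 in ERRα KO hearts, and rose by 0.68 ± 0.08 (adjusted p = 0.00468). Carriers and non-carriers of Lyve1 did not overlap in either background. Ier5, an early response gene, rose by 0.61 ± 0.10 (adjusted p = 0.0409), and Cyp1b1, a cytochrome that oxidises steroids and xenobiotics, by 0.49 ± 0.08 (adjusted p = 0.0294). The calls of Tnfrsf12a, Ier5 and Cyp1b1 were kept only without KI:KO replicate 3 or ERRα KO replicate 2, and that of Ms4a4a was lost without WT replicate 1 or 2 or ErbB2 KI replicate 1. Outside the rule for naming, the called genes were Ybx2 (0.44), Best3 (0.44) and St3gal5 (0.45), each of which had 0.73 to 0.79 without ERRα and 0.10 to 0.15 with it. In whole heart tissue, more cells of a type and more RNA per cell cannot be told apart.

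Markers of macrophages and of lymphatic endothelium are given beside these genes. Of 18 macrophage markers 0 were called (limma), 4 were higher (Cd68, Mrc1, C1qa and Trem2) and 1 lower (Cx3cr1) at an unadjusted p under 0.05, and the list's median difference was 0.01 with ERRα and 0.38 without it. Their summed linear level was 2864 to 3182 in ErbB2 KI and 4700 to 6075 in KI:KO hearts, against 2871 to 2966 in WT and 3195 to 5120 in ERRα KO hearts. Lymphatic endothelial markers (7 measured) included Lyve1 as the only gene called, with Prox1 at -0.32 ± 0.12 (adjusted p = 0.417). Mast cell markers (7 measured) had 3 higher genes at an unadjusted p under 0.05, the proteases Cpa3, Mcpt4 and Cma1 (0.45 to 0.77), while Tpsb2 was at 0.14 and Kit, Hdc and Ms4a2 were at -0.11, -0.13 and -0.01. Skeletal muscle markers summed to 5461 to 5979 in ErbB2 KI and 5090 to 6985 in KI:KO hearts, against 5335 to 5873 in WT and 4342 to 4790 in ERRα KO hearts. Acta1, which is also among the heart stress markers, had the largest difference of this list (1.02), and the list's median was 0.06. The part of any cell type in the rises was not tested.

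Of the 2 called genes whose difference changed sign between the backgrounds, Kcnt2 was the call with the smallest p of all. Kcnt2, a sodium-activated potassium channel, was at 7.29, 7.32 and 7.02 in ErbB2 KI hearts, against 4.12, 4.06 and 4.46 in WT hearts, and at 7.29, 7.17 and 7.38 in KI:KO hearts, against 7.16, 7.36 and 7.49 in ERRα KO hearts. The average of 1.47 ± 0.09 (adjusted p = 6.92e-05) therefore joins a difference of 2.99 with ERRα to -0.06 without it, and WT hearts alone were low (interaction, adjusted p = 4.55e-05). Pvr, a nectin-like adhesion receptor, was at 7.33 to 7.41 in ErbB2 KI and 8.24 to 8.58 in KI:KO hearts, against 7.30 to 7.62 in WT and 7.21 to 7.40 in ERRα KO hearts. It rose by 0.49 ± 0.08 (adjusted p = 0.0459), with -0.10 and 1.09 in the backgrounds. The call of Pvr was kept only without KI:KO replicate 3 or ERRα KO replicate 2, and that of Kcnt2 was kept without any single array. Kcnt2 lost it in the additive model (adjusted p = 0.351), with the ERRα genotype left out (0.821) and by the methods' test (0.843). Among 27 potassium channel genes 1 rose (Kcnt2) and 0 fell, with 2 higher and 5 lower at an unadjusted p under 0.05, Kcnj5 of the acetylcholine-gated channel having the smallest p of these 5 (-0.36 ± 0.08, adjusted p = 0.163).

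Genes of antigen presentation and of the interferon response gave many negative differences, but 0 genes of either list passed adjustment (limma). Of 16 MHC antigen presentation genes all 16 had a negative difference, 14 of them at an unadjusted p under 0.05, against 4.51% of all genes. The median was -0.64, with -0.53 with ERRα and -0.76 without it. H2-K1, a classical class I heavy chain, was at 7.26, 7.17 and 7.10 in ErbB2 KI hearts, against 7.66, 7.92 and 7.38 in WT hearts, and at 7.16, 7.55 and 7.87 in KI:KO hearts, against 8.57, 8.08 and 8.67 in ERRα KO hearts (-0.69 ± 0.14, adjusted p = 0.107). B2m, the light chain of all class I molecules, was at 11.45 to 11.57 in ErbB2 KI and 11.56 to 12.26 in KI:KO hearts, against 11.79 to 12.26 in WT and 12.26 to 12.75 in ERRα KO hearts (-0.59 ± 0.13, adjusted p = 0.138). H2-Ab1, a class II chain of antigen-presenting cells, differed by -0.99 ± 0.25 (adjusted p = 0.208). Carriers and non-carriers of H2-K1 and B2m did not overlap within either background, though B2m came close to it without ERRα. For H2-Ab1, KI:KO replicate 3 lay at 9.08, above ERRα KO replicate 2 at 8.84. The number of MHC genes at an unadjusted p under 0.05 was 10 to 15 without single arrays. After adjustment 3 MHC genes were called lower without ERRα KO replicate 2 and 2 without KI:KO replicate 3. The mean level of the list was highest in ERRα KO replicates 1 and 3 (7.685 and 7.502) and WT replicate 2 (7.18), against 6.47 to 6.77 in the other non-carriers and 6.31 to 6.85 in all carriers. The H2 genes and the interferon-inducible GTPases belong to families with near-identical copies, so probe sets may share signal between members.

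Of 25 interferon-stimulated genes 23 had a negative difference, 10 at an unadjusted p under 0.05 and 6 without ERRα KO replicate 1. After adjustment 1 of them was called lower without KI:KO replicate 1. The median was -0.23. Rtp4, a chaperone of G-protein-coupled receptors, had the smallest p, and was at 6.28 to 6.66 in ErbB2 KI and 6.81 to 7.26 in KI:KO hearts, against 7.01 to 7.42 in WT and 7.41 to 7.72 in ERRα KO hearts (-0.61 ± 0.11, adjusted p = 0.0707). Igtp, an interferon-γ-inducible GTPase, had a far larger and less even difference. Its log2 value was 5.55, 5.36 and 6.14 in ErbB2 KI hearts, against 7.43, 9.62 and 6.12 in WT hearts, and 6.42, 6.62 and 7.54 in KI:KO hearts, against 10.68, 6.98 and 10.31 in ERRα KO hearts (-2.25 ± 0.67, adjusted p = 0.287). Single non-carriers were high and others were not, and the groups overlapped in both backgrounds. The mean level of the interferon list showed the same arrays, with 6.12 in WT replicate 2 and 6.38 and 6.11 in ERRα KO replicates 1 and 3, against 5.21 to 5.94 on all other arrays.

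The interferon-stimulated response element was searched in the same promoters on both strands, as GAAA, NN and GAAA in a row. It was present in 11 of 17 interferon-stimulated genes and 2 of 12 MHC genes that have a promoter in the table, and in 3.87% of the 16990 tested genes that have one. The stretches are shown for B2m, Igtp and Gbp3, which the text gives values for, with the motif of either strand in capitals. They lie at chr2:122147503-122147602 (B2m), chr11:58199477-58199576 (Igtp) and chr3:142559954-142560053 (Gbp3), all on the plus strand of GRCm38.p6.
B2m: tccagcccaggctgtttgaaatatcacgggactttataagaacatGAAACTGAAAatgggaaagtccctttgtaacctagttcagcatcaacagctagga
Igtp: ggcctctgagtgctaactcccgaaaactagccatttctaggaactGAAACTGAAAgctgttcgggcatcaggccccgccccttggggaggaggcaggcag
Gbp3: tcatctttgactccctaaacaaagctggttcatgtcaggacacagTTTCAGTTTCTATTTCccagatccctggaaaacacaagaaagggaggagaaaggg
In Gbp3, a guanylate-binding protein, the capitals hold 2 overlapping matches on the opposite strand. Gbp3 was at 4.52 to 4.71 in ErbB2 KI and 4.23 to 5.85 in KI:KO hearts, against 5.13 to 6.58 in WT and 5.29 to 6.75 in ERRα KO hearts (-1.17 ± 0.34, adjusted p = 0.271).

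**Figure D4:**
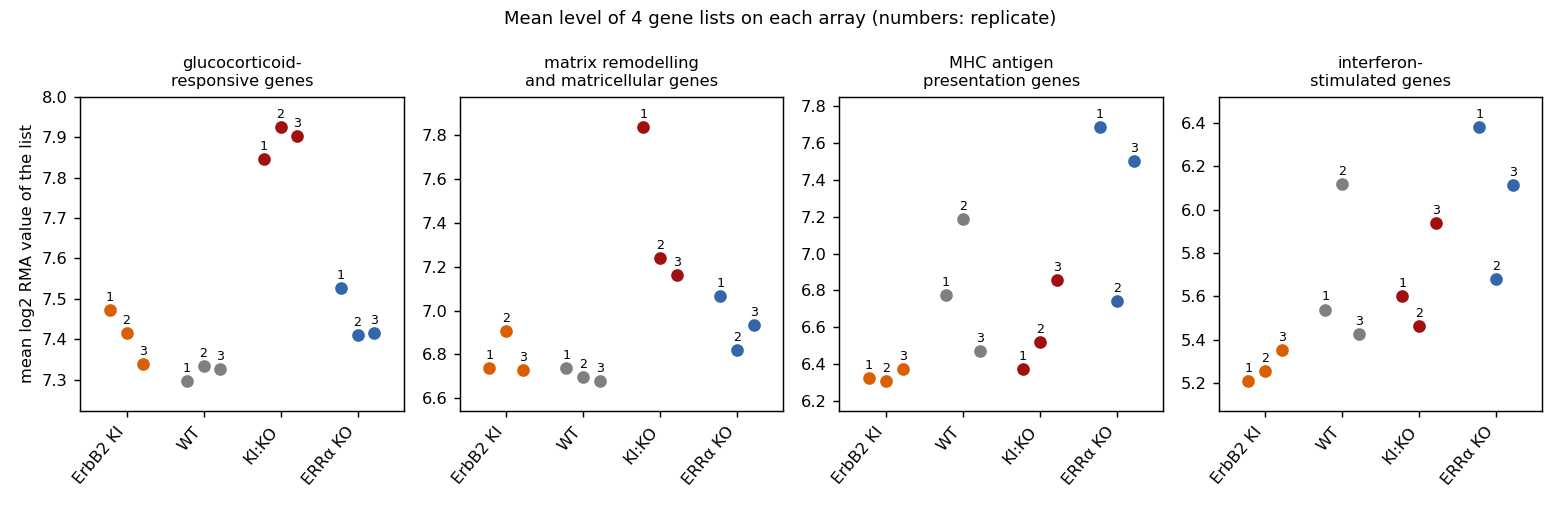
Mean log2 RMA value of 4 gene lists on each array, by group and replicate number. The glucocorticoid-responsive genes are highest on the 3 KI:KO arrays (7.85 to 7.92), and the interferon-stimulated genes are highest in WT replicate 2 and ERRα KO replicates 1 and 3 (6.11 to 6.38).

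Both lists of extracellular matrix genes had positive median differences, larger in hearts without ERRα, and no member of either passed adjustment (limma). The called gene Adamtsl2 belongs to neither list. Of 43 matrix remodelling and matricellular genes 0 were called (limma), 14 were higher and 1 lower at an unadjusted p under 0.05, and the median was 0.26 (0.07 with ERRα and 0.42 without it). The median was 0.14 without KI:KO replicate 1. Without KI:KO replicate 3, 24 were higher at an unadjusted p under 0.05 and 4 rose after adjustment, and 1 rose without ErbB2 KI replicate 3. Ccn2, a matricellular target of TGF-β and YAP, was at 8.43, 8.57 and 8.08 in ErbB2 KI hearts, against 8.11, 8.02 and 8.06 in WT hearts, and at 9.89, 9.67 and 9.74 in KI:KO hearts, against 9.01, 8.74 and 9.09 in ERRα KO hearts (0.56 ± 0.09, adjusted p = 0.0572). Adamts8, a secreted metalloprotease, differed by 1.07 ± 0.21 (adjusted p = 0.101) and Timp3, an inhibitor of such proteases, by 0.32 ± 0.07 (adjusted p = 0.167). Collagens and other fibrillar matrix genes (33 measured) had a median of 0.17 and 4 higher genes at an unadjusted p under 0.05. That median was 0.04 without KI:KO replicate 1, and the count was 2 without ErbB2 KI replicate 2 or ERRα KO replicate 2, 7 without KI:KO replicate 2 and 10 without KI:KO replicate 3. Myofibroblast markers summed to 2538 to 3480 in ErbB2 KI and 7036 to 10060 in KI:KO hearts, against 2305 to 3124 in WT and 6182 to 6695 in ERRα KO hearts.

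**Figure D5:**
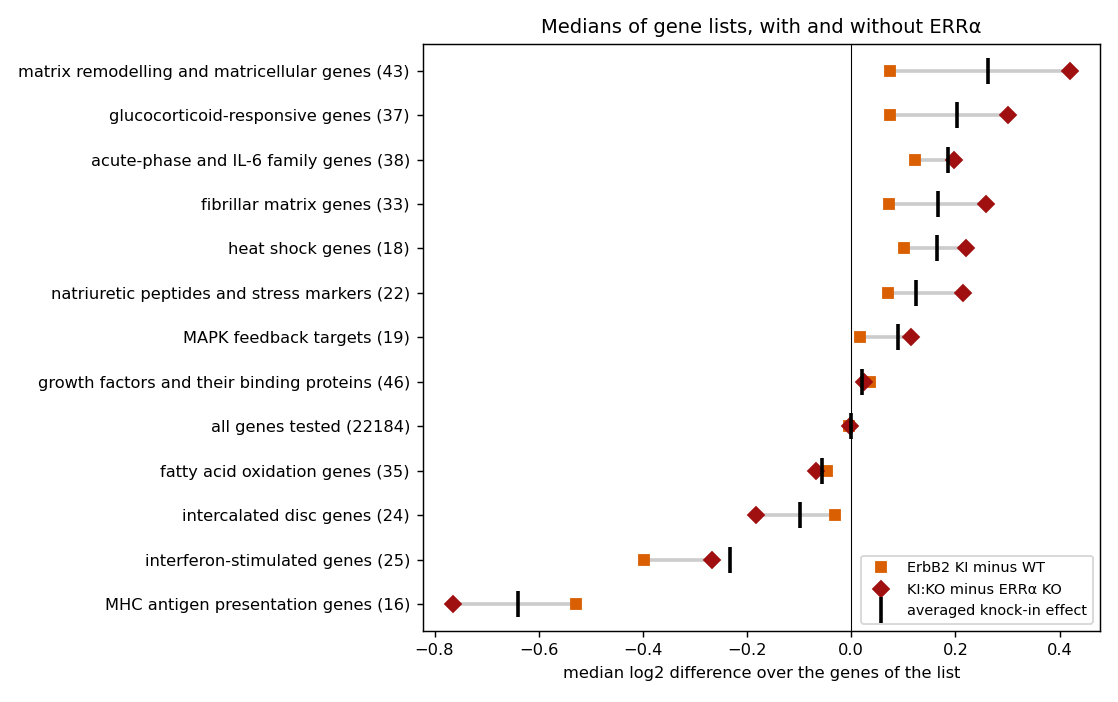
Median log2 difference of each gene list (number of genes measured in brackets) for ErbB2 KI minus WT, for KI:KO minus ERRα KO, and for the averaged knock-in effect. The MHC list lies at -0.64 on average and the matrix remodelling list at 0.26, with all genes at -0.0013.

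Among the markers of strained heart muscle, Nppb had the smallest p and narrowly missed the threshold. Nppb, which encodes the natriuretic peptide BNP, was at 12.20, 12.11 and 12.003 in ErbB2 KI hearts, against 11.75, 11.75 and 11.72 in WT hearts, and at 12.88, 12.67 and 12.30 in KI:KO hearts, against 11.94, 11.92 and 11.999 in ERRα KO hearts. Each carrier lay above all non-carriers, though the lowest carrier barely passed the highest non-carrier, and the difference was 0.52 ± 0.09 (adjusted p = 0.0572). Acta1, the skeletal actin re-expressed in strained hearts, differed by 1.02 ± 0.26 (adjusted p = 0.213). Of 22 natriuretic peptide and stress genes 0 were called (limma), and 6 were higher and 1 lower at an unadjusted p under 0.05 (3 higher without WT replicate 2 or ErbB2 KI replicate 2), with a median of 0.13 (0.08 without ErbB2 KI replicate 2), and 2 were called without KI:KO replicate 3. Heat shock genes (18 measured) had a median of 0.17 and 4 higher at an unadjusted p under 0.05, but 12 (3 of them called) without KI:KO replicate 3, and 2 without KI:KO replicates 1 or 2, ErbB2 KI replicate 2, ERRα KO replicate 1 or WT replicates 1 or 3. Their median was 0.11 without KI:KO replicate 2 and 0.26 without KI:KO replicate 3.

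Among genes that hold heart muscle cells together, fuel them or carry their ion currents, few differences passed the test. Of 24 intercalated disc genes 0 were called (limma) and 8 were lower at an unadjusted p under 0.05, a count that was 6 without ErbB2 KI or ERRα KO replicate 1 and 2 to 5 without any other array. Gja1, the main gap junction connexin of the ventricle, differed by -0.18 ± 0.07 (adjusted p = 0.437). Of 35 fatty acid oxidation genes 6 were lower at an unadjusted p under 0.05, Slc27a1, a fatty acid transporter, having the smallest p (-0.28 ± 0.07, adjusted p = 0.209). Ucp3, a mitochondrial carrier, was at 7.22 to 7.78 in ErbB2 KI and 6.38 to 7.42 in KI:KO hearts, against 7.68 to 8.23 in WT and 7.22 to 7.77 in ERRα KO hearts (-0.60 ± 0.19, adjusted p = 0.310). Among 30 sodium and calcium handling genes 1 fell (Cacna1g), with Cacna1c, the main L-type channel subunit, at -0.18 ± 0.05 (adjusted p = 0.303). Clock genes (19 measured) had 0 called (limma), and 7 were higher and 2 lower at an unadjusted p under 0.05. The 7 became 1 to 4 without replicates 1 or 2 of KI:KO, 2 or 3 of ErbB2 KI, 1 or 3 of ERRα KO and 1 or 3 of WT. Per1, a clock repressor that glucocorticoids also induce, differed by 0.76 ± 0.20 (adjusted p = 0.225), and Arntl, the activator of the opposite phase, by -0.59 ± 0.16 (adjusted p = 0.243).

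Besides Erbb2, the receptors and ligands of the family did not pass. Among the receptors Egfr differed by 0.12 ± 0.09 (95% interval -0.07 to 0.30), Erbb3 by 0.03 ± 0.10 (-0.19 to 0.25) and Erbb4, the neuregulin receptor of cardiomyocytes, by -0.15 ± 0.08 (-0.32 to 0.02). In the backgrounds Erbb4 was at 0.08 with ERRα and -0.38 without it (interaction, adjusted p = 0.554), and Erbb3 at -0.20 and 0.26 (adjusted p = 0.681). The sign of Erbb3 turned without KI:KO replicate 2 or the replicate 3 of ErbB2 KI or ERRα KO. Of 10 ligands measured 0 were called (limma) and 2 were higher at an unadjusted p under 0.05, Hbegf (0.39 ± 0.17, adjusted p = 0.536) and Ereg (0.36 ± 0.16, adjusted p = 0.521). Hbegf, the heparin-binding ligand of Egfr and Erbb4, was at 7.29 to 7.58 in ErbB2 KI and 7.26 to 8.48 in KI:KO hearts, against 7.17 to 7.45 in WT and 7.33 to 7.45 in ERRα KO hearts, and the groups overlapped. Of 18 adaptors and inhibitors 2 were higher and 1 lower at an unadjusted p under 0.05. Errfi1, a feedback inhibitor of ErbB kinases, was at 6.99 to 7.48 in ErbB2 KI and 7.73 to 8.14 in KI:KO hearts, against 6.85 to 7.06 in WT and 7.07 to 7.57 in ERRα KO hearts (0.44 ± 0.11, adjusted p = 0.208). Of 16 genes of the PI3K and MAPK cascades 1 was higher and 1 lower at an unadjusted p under 0.05. Transcripts that MAPK signalling induces as feedback (19 measured) had 2 higher, Ier3 (0.59 ± 0.10, adjusted p = 0.0684) and Myc (0.47 ± 0.12, adjusted p = 0.208), and 1 lower, Epha4. Without ErbB2 KI replicate 1 there were 5 higher, and 4 without ERRα KO or KI:KO replicate 1. Of this list 1 gene was called without ErbB2 KI replicate 1 or KI:KO replicate 3.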

How the data were processed

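RNA came from powdered frozen heart and was hybridised to 12 Affymetrix Mouse Gene 2.0 ST arrays, 1 per mouse. The authors summarised the scans with RMA in Affymetrix Expression Console 1.4.1, and the deposited values are log2 RMA values per probe set; the Transcriptome Analysis Console was their tool for comparisons. Of 41345 probe sets, 23525 carried 1 gene, 1816 several and 16004 none. Only those with 1 gene were used, and of 1082 genes with several probe sets the one with the highest mean was kept, giving 22184 genes. A model with 4 group means was fitted in limma 3.58.1 (R 4.3.3), and the knock-in effect was the average of ErbB2 KI minus WT and KI:KO minus ERRα KO. Tests were two-sided with Benjamini-Hochberg adjustment over all genes, and calls needed an adjusted p under 0.05. The fit was tested on simulated data. Genes named are the 14 largest calls in each direction with the same sign in both backgrounds (all where fewer), up to 4 calls of opposite sign or with a called interaction, the ErbB receptors and ligands, called genes within 5 Mb of Erbb2 or Msl3, up to 4 genes of each list with the smallest p, and the growth factors Fgf6, Fgf16, Igf1 and Pgf. Single marker genes, Dusp1, Tlr7, Tlr8 and 3 further called genes lie outside this rule and were chosen after their values were seen. Symbols, positions (GRCm38.p6) and promoters are from RefSeq. The gene lists and the comparison were chosen with earlier results of these data known. Alternatives changed the probe set rule, scaling, variance model, model terms, threshold and arrays.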

Additional observations from a re-analysis of the deposited data

Results flagged for a closer look

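Kcnt2 differed between the ERRα backgrounds: its knock-in difference was 2.99 with ERRα and -0.06 without it, an interaction of -3.0486 on the log2 scale (limma, adjusted p = 4.55e-05).

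Among the 17820 probe sets with several genes or none, which no comparison of genes uses, 2 were called when all probe sets were tested, both without a gene in the annotation. The first was 2.0023 higher in knock-in carriers (SE 0.08, limma, adjusted p = 3.5e-06), at 7.94 to 8.18 in ErbB2 KI hearts, against 5.21 to 5.39 in WT hearts, and at 8.75 to 9.07 in KI:KO hearts, against 7.68 to 7.81 in ERRα KO hearts. The second was 1.7715 higher (limma, adjusted p = 1.28e-05), with a difference of 2.31 with ERRα and 1.23 without it. It stood at 7.93 to 8.07 in ErbB2 KI and 8.69 to 9.02 in KI:KO hearts, against 5.56 to 5.87 in WT and 7.55 to 7.745 in ERRα KO hearts. In both, carriers lay above non-carriers within each background, and the ERRα KO hearts also lay above all WT hearts. The values of both probe sets were similar, and whether they measure the same transcript was not tested. With 3 arrays in each group, single arrays were not tested as outliers.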

How the results depend on the processing

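The 27 genes called on average, 3 with ERRα, 73 without it and 2 in the interaction became 98, 9, 237 and 6 when the dimmest 40 percent of genes were left out, 140, 11, 294 and 18 with an intensity trend, 61, 7, 204 and 4 with array weights and 16, 5, 34 and 5 over all probe sets. At an unadjusted p with a fold of 1.2 they became 847, 953, 1875 and 1547. The averaged count was 12 in an additive model, 8 with the ERRα genotype left out and 16 when p in each background was also required. In an ordinary t-test of carriers against non-carriers it was 5 after adjustment, and 480 at an unadjusted p with a fold of 1.2. That t-test left the ERRα genotype out, and it is not the paper's comparison of each genotype with WT. With only the compared groups fitted, 1 gene was called with ERRα and 12 without it. The interaction count was 1 after quantile normalization. All 27 genes remained called with dim genes left out, the trend, the weights and median centring. The cause of these changes was not tested. Without single arrays the counts ranged from 15 to 104 on average, 2 to 15 with ERRα, 17 to 248 without it and 1 to 22 in the interaction.

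The replicate numbers were entered as a block although same-numbered arrays did not deviate together (r from -0.19 to 0.14 over 6 pairs). With the replicate block 26 genes were called on average, 2 with ERRα, 38 without it and 1 in the interaction.

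Reversals of sign concerned genes close to 0. With array weights Nrg1 was at -0.1127 and Nrg3 at -0.0137. Without single arrays Nrg1 ranged from -0.2325 to 0.1637, Nrg3 from -0.0331 to 0.0493, Nrg4 from -0.066 to 0.0688, Erbb3 from -0.0442 to 0.0869 and Tgfa from -0.0008 to 0.0938. With 12 arrays, small differences may have been missed, and how detection depends on the brightness of a gene was not measured.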

Other observations

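Energy and stress lists outside the main account gave few calls. These counts are at an unadjusted p under 0.05, where 4.55% of all genes were higher and 4.51% lower. Of 44 respiratory chain genes 1 fell (Hccs, described with the X-linked genes) and 3 were lower, and of 28 genes of pyruvate and citric acid cycle metabolism 2 were lower and 26 had a negative difference. Glycolysis and glucose uptake genes (28 measured) had 6 higher and integrated stress response genes (23 measured) 6 higher and 1 lower, the second list having a median of 0.11. Sarcomere and Z-disc genes (43 measured) had 4 higher and 3 lower. Chemokines and receptors (29 measured) had 7 higher and 3 lower, p53 targets (22 measured) 4 and 2, antioxidant genes (25 measured) 4 and 0, immediate early genes (19 measured) 0 and 2, and ubiquitin ligase and autophagy genes (19 measured) 1 and 3. Of all these, none except Hccs passed adjustment (limma).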
